A study of Mus musculus with 10 samples.

Results

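This report concerns 32 genes for receptors of the transmitters glutamate and GABA in mouse brain cortex, out of 22198 genes in the deposited expression table. They were chosen by name and by receptor class: 4 AMPA, 6 NMDA and 5 kainate receptor subunits, 6 metabotropic glutamate receptors, 9 GABA-A receptor subunits and 2 GABA-B receptor subunits. The list does not hold every gene of these families, and a count over a class is a count over its listed members. RNA sequencing covered 5 libraries labelled BKO, with the genotype given as Mic19 knockout, and 5 labelled ctrl, with the genotype given as Mic19 wild type. All were from cortex of untreated mice aged 6 months. The labels state neither the promoter or cell type of the deletion, nor the strain or sex, nor whether the libraries of a group are from separate animals. A p-value therefore reflects only how much these libraries varied. The study's title concerns epilepsy, and its stated design was to analyse genes related to inflammation.

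Glutamate is the main excitatory transmitter of the cortex. It opens AMPA, NMDA and kainate receptors, which are tetrameric cation channels, and it acts more slowly through metabotropic receptors, which couple to G proteins. GABA, the main inhibitory transmitter, opens GABA-A receptors, which are pentameric chloride channels, and activates GABA-B receptors, which couple to G proteins as a dimer of both subunits. Which subunits assemble sets a channel's kinetics, drug response, calcium entry and place at or away from the synapse.

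None of the 32 receptor genes changed between BKO and ctrl at an adjusted p under 0.05 (limma over all genes tested, Benjamini-Hochberg), against 5.79% of the 14447 genes tested (3.32% higher and 2.46% lower in BKO). Without adjustment, 7 of the 32 had p under 0.05, against 17.5% of all genes tested. All 7 stood lower in BKO, where 8.35% of all genes tested had such a p and stood lower and 9.12% stood higher. They were Gabra3, Gabrg1, Gria4, Grin2c, Gabra4, Gria3 and Grm5. The estimate was below 0 for 25 of 32 members, with a median of -0.07 on the log2(FPKM + 0.5) scale, where all genes tested had 50.02% below 0 and a median of 0.00. FPKM is fragments scaled by gene length and by the library's total, as deposited by the authors, and a log2 difference is BKO minus ctrl throughout, on a scale that understates changes of low genes. All 32 members passed the filter on low values, so none was left untested. In bulk tissue, fewer cells of a type and less RNA per cell cannot be told apart.

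The intervals show what these libraries could and could not tell apart. The 95% interval of limma lay wholly within 0.3 on the log2 scale, which is a rise of 23.1% or a fall of 18.8%, for 27 of the 32 members. The exceptions were Grin2b, Grin2c, Gabra2, Gabrg1 and Gabrg3. Within 0.5, a rise of 41.4% or a fall of 29.3%, lay 30 members, all but Gabrg1 and Gabrg3. The bounds concern the ends of the intervals and are not the smallest difference that could be seen. The standard error (SE) of the members ran from 0.0352 to 0.150 on the log2 scale, with a median of 0.0633. A p that misses the threshold does not show that the levels were equal.

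**Figure D1:**
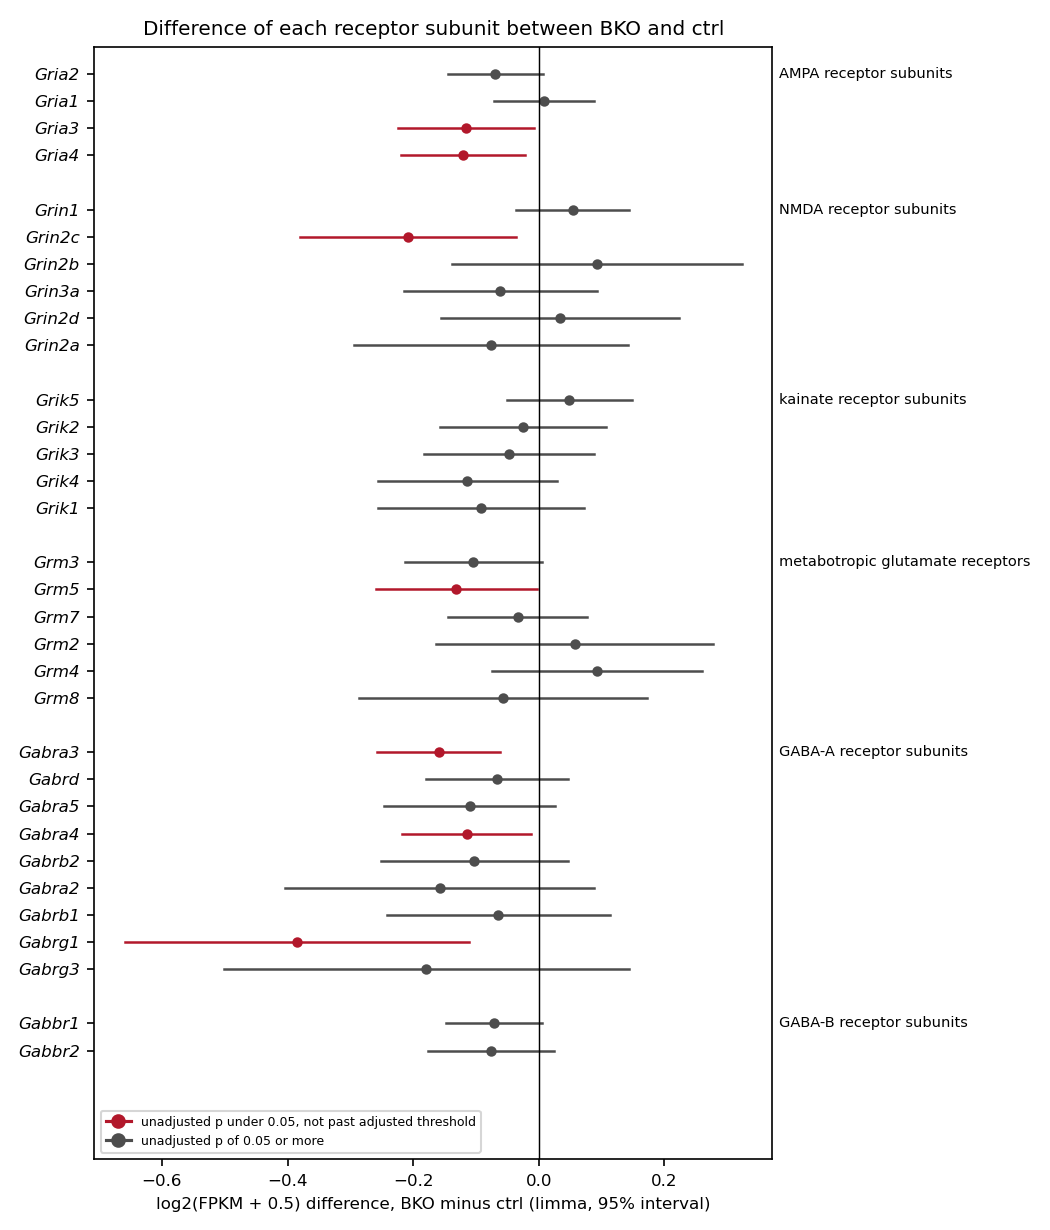
Difference of each receptor gene between BKO and ctrl on the log2(FPKM + 0.5) scale (horizontal axis), with limma's 95% interval as a line, grouped by class. Estimates lie left of 0 for 25 of 32 genes, and the 7 in red had an unadjusted p under 0.05, but none passed after adjustment over all genes.

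The samples carried the markers of cortex. Slc17a7, the vesicular glutamate transporter of cortical excitatory neurons, stood at 560 to 682 FPKM in BKO and 629 to 692 FPKM in ctrl. Gad1, which makes GABA, stood at 208 to 222 FPKM in BKO and 202 to 224 FPKM in ctrl. All 9 listed markers of striatum were also present, with a summed level of 1303 to 1518 FPKM in BKO and 1388 to 1641 FPKM in ctrl, among them the dopamine receptor Drd2 at 36.1 to 49.5 FPKM in BKO and 42.5 to 53.4 FPKM in ctrl. All 9 striatum markers had estimates below 0 (median -0.08), and none was called. Markers of olfactory bulb and migrating neuroblasts were low but differed with the labels, at a sum of 22.2 to 38.1 FPKM in BKO and 14.7 to 25.8 FPKM in ctrl. All 6 had estimates above 0 (median 0.63), 5 had an unadjusted p under 0.05, and Th, which makes the precursor of dopamine, rose by 0.73 (limma adjusted p = 0.0274). The part of either list in the receptor differences was not tested. Summed markers of choroid plexus exceeded 1000 FPKM in BKO 1, 2 and 5 and in ctrl 1, 3 and 5 and lay between 46.4 and 95.2 FPKM in the other 4 libraries. Chchd3, the gene of Mic19, was not lower in BKO: it stood at 81.5 to 94.2 FPKM in BKO and 73.1 to 82.3 FPKM in ctrl (difference 0.17, limma adjusted p = 0.0528; exact permutation test on FPKM, 2-sided, p = 0.0159). The whole-gene level thus does not check the genotype labels, and each direction below follows the labels BKO and ctrl. The FPKM of a library summed to between 730340 and 766786, and 13438 to 13720 genes stood at 1 FPKM or more.

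Levels of the receptor genes spanned from 4.38 FPKM for Gabrg3 to 298 FPKM for Gabbr1 as means over the 10 libraries. The gene lengths behind the FPKM are not given, and the order of genes rests on them. Of the 32, 6 averaged 100 FPKM or more, 19 lay between 10 and 100, and 7 lay below 10. Gabbr1 led in all 10 libraries. Grin1 at 235 FPKM and Gria2 at 224 FPKM followed, and their order was not fixed, since Grin1 was the higher in 7 of 10 libraries. Next came Gria1, Grik5 and Gabbr2, whose library ranges overlapped one another. The median coefficient of variation among the members was 5.78% in BKO and 6.10% in ctrl, so the libraries of a group resembled each other closely for most members.

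**Figure D2:**
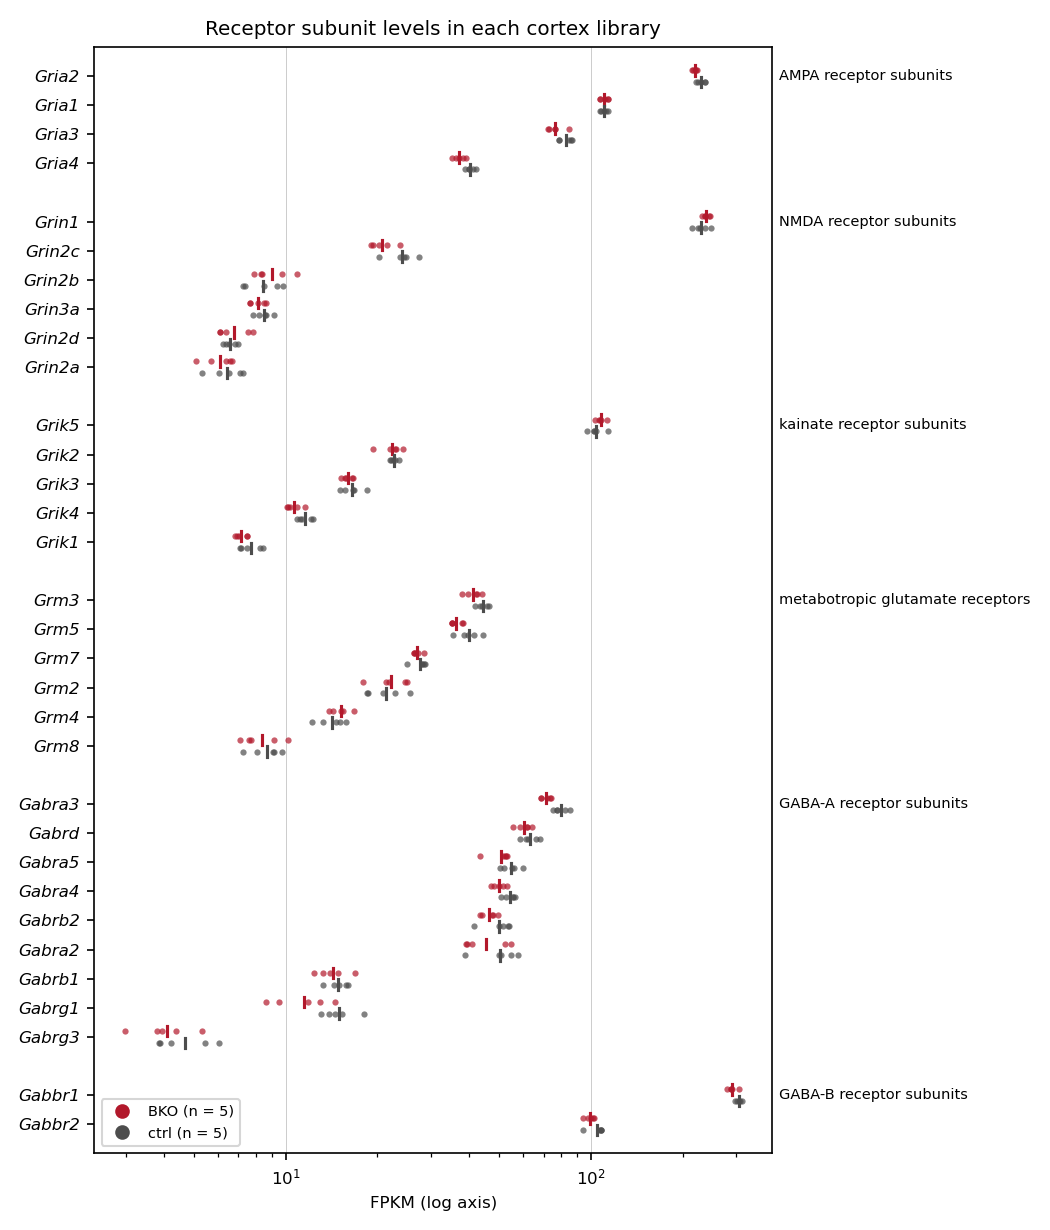
FPKM of every receptor gene in each library (log axis), with BKO in red above ctrl in grey and the group mean as a vertical tick. Levels span from a few FPKM for Gabrg3 to 298 for Gabbr1 as means, and the BKO and ctrl points overlap for every gene but Gabra3.

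Among the AMPA receptor subunits, the principal carriers of fast excitation, the listed 4 gave no call, and the estimates of Gria2, Gria3 and Gria4 lay below 0. Gria1 stood at 114, 111, 107, 114 and 107 FPKM in BKO 1 to 5, against 110.1, 107, 114, 112 and 108 FPKM in ctrl 1 to 5. The groups covered the same range, and the difference was 0.01 (SE 0.0371, limma adjusted p = 0.9505) with an interval of -4.88% to 6.23%. Gria1 was the 1 member whose interval lay within 0.1 of 0 on the log2 scale. Gria2, whose edited form keeps calcium out of the channel, stood at 219.65, 215, 222, 221 and 216 FPKM in BKO 1 to 5, against 229.9, 236, 237, 220.4 and 224 FPKM in ctrl 1 to 5. Only ctrl 4 reached down into the BKO range (difference -0.07, SE 0.0352, limma adjusted p = 0.337). Gria3 stood at 84.55, 72.5, 76.6, 76.2 and 72.9 FPKM in BKO 1 to 5, against 84.85, 85.9, 86.5, 78.9 and 78.7 FPKM in ctrl 1 to 5. Here BKO 1 lay among the ctrl libraries and the other 4 BKO libraries below all of them (difference -0.12, SE 0.0502, limma adjusted p = 0.242). Gria4, found mainly in interneurons and early circuits, stood at 39.1, 35.1, 38.1, 36.9 and 36.1 FPKM in BKO 1 to 5, against 40.0, 39.8, 42.0, 38.8 and 41.1 FPKM in ctrl 1 to 5. The groups overlapped only through BKO 1 and ctrl 4 (difference -0.12, SE 0.0460, limma adjusted p = 0.170).

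The shares of the AMPA genes overlapped between the groups, those of Gria1 and Gria4 through few libraries. Gria2 held 49.4 ± 0.787% of the summed FPKM of the 4 genes in BKO and 49.6 ± 0.498% in ctrl (SD, n = 5 each). The share of Gria1 was 24.99 ± 0.600% in BKO and 23.8 ± 0.726% in ctrl, with ranges of 24.2 to 25.7% in BKO and 22.8 to 24.9% in ctrl, where only ctrl 4 reached the BKO range. Gria4 held 8.36 ± 0.211% in BKO and 8.71 ± 0.236% in ctrl, with ranges of 8.08 to 8.58% in BKO and 8.49 to 9.10% in ctrl, where only ctrl 2 reached the BKO range. Shares within a library do not depend on how the library was scaled, but they do depend on the gene lengths used. No test was made of them.

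Of the 6 NMDA receptor genes, 3 had estimates above 0 and 3 below, and none was called. Grin1, the subunit that every NMDA receptor needs, stood at 237, 232, 246, 244 and 236 FPKM in BKO 1 to 5, against 237, 229, 224, 248 and 215 FPKM in ctrl 1 to 5. The BKO values lay inside the ctrl range (difference 0.05, SE 0.0420, limma adjusted p = 0.570). Grin2b, the glutamate-binding subunit that prevails early in life, averaged 9.04 ± 1.26 FPKM in BKO and 8.45 ± 1.16 FPKM in ctrl (SD, n = 5 each). Grin2a, which takes over as the cortex matures, averaged 6.09 ± 0.677 FPKM in BKO and 6.45 ± 0.778 FPKM in ctrl. The share of Grin2a in the sum of both was 40.3 ± 2.76% in BKO and 43.3 ± 1.31% in ctrl, and the ranges, 37.9 to 44.3% in BKO and 41.8 to 45.2% in ctrl, overlapped. Grin2d, known from interneurons, averaged 6.79 ± 0.841 FPKM in BKO and 6.60 ± 0.298 FPKM in ctrl, and Grin3a, a glycine-binding subunit that lowers calcium entry, averaged 8.10 ± 0.454 FPKM in BKO and 8.47 ± 0.487 FPKM in ctrl.

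Grin2c was the NMDA receptor gene with the lowest p. It is best known from cerebellar granule cells and, in forebrain, from astrocytes. It stood at 19.05, 23.7, 20.2, 21.5 and 19.3 FPKM in BKO 1 to 5, against 24.7, 20.3, 23.6, 27.5 and 24.4 FPKM in ctrl 1 to 5. BKO 2 lay among the ctrl libraries and ctrl 2 among the BKO libraries (difference -0.21, SE 0.0804, limma adjusted p = 0.178, interval -23.2% to -2.47%). Of 9 astrocyte markers, 3 were called higher and none was called lower. Estimates below 0 were found for 2, Gjb6 at -0.21 (interval -24.1% to -2.01%) and Aldoc at -0.03. The summed level of the 9 markers was 1903 to 2055 FPKM in BKO and 1789 to 2036 FPKM in ctrl. Aldoc alone averaged 1051 FPKM in BKO and 1075 FPKM in ctrl. The part of these markers in Grin2c was not tested.

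The 5 kainate receptor genes gave no call and no unadjusted p under 0.05, with estimates from -0.11 to 0.05. Grik5 needs a partner subunit to form a channel and was the most abundant, at 108, 107, 113, 103 and 107 FPKM in BKO 1 to 5, against 103, 103, 96.95, 114 and 104 FPKM in ctrl 1 to 5. The BKO values lay inside the ctrl range (difference 0.05, SE 0.0464, limma adjusted p = 0.666). Ctrl 1, 2 and 3 lay below every BKO library, ctrl 1 and 2 only just, at 102.59 and 102.82 against 102.84 FPKM. Grik4, the other partner-dependent subunit, averaged 10.6 ± 0.629 FPKM in BKO and 11.6 ± 0.630 FPKM in ctrl (SD, n = 5 each; difference -0.11, limma adjusted p = 0.418). Both together held 72.3 ± 1.41% of the class in BKO and 71.2 ± 1.67% in ctrl. The channel-forming subunits Grik2, Grik3 and Grik1 differed by -0.03, -0.05 and -0.09, with limma adjusted p from 0.601 to 0.888.

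Among the metabotropic glutamate receptors, none was called, with 4 of 6 estimates below 0. Grm5, which couples to phospholipase C, stood at 38.2, 35.2, 35.1, 37.8 and 35.2 FPKM in BKO 1 to 5, against 39.7, 44.4, 41.5, 38.4 and 35.3 FPKM in ctrl 1 to 5. Ctrl 5 lay with the BKO libraries and the other ctrl libraries above them all (difference -0.13, SE 0.0599, limma adjusted p = 0.274). Grm3, an inhibitory receptor that astrocytes also express, averaged 41.1 ± 2.41 FPKM in BKO and 44.2 ± 1.85 FPKM in ctrl (SD, n = 5 each; difference -0.10, limma adjusted p = 0.315). Its close relative Grm2, of presynaptic terminals, averaged 22.1 ± 2.88 FPKM in BKO and 21.3 ± 3.05 FPKM in ctrl, with an interval of -10.7% to 21.2%. The presynaptic receptors Grm7, Grm4 and Grm8 averaged 26.9 ± 0.850, 15.1 ± 1.11 and 8.34 ± 1.28 FPKM in BKO, against 27.6 ± 1.51, 14.2 ± 1.44 and 8.66 ± 1.00 FPKM in ctrl. Their differences were -0.03, 0.09 and -0.06, and the groups overlapped for each.

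All 9 listed GABA-A receptor genes had estimates below 0, none of them called, from -0.38 for Gabrg1 to -0.06 for Gabrb1, with a median of -0.11. The medians were -0.09 for AMPA, -0.01 for NMDA, -0.05 for kainate, -0.05 for metabotropic and -0.07 for GABA-B receptors. No test was made between classes. The summed level of the 9 genes was 368, 355, 355, 345 and 347 FPKM in BKO 1 to 5, against 383, 388, 407, 374 and 383 FPKM in ctrl 1 to 5. Every BKO sum lay below every ctrl sum, also after rescaling to an equal total per library and after median-of-ratios rescaling. The sums of the other 5 classes overlapped under all 3 scalings. Before rescaling, the AMPA sums overlapped only through BKO 1, at 457 FPKM against 450 to 479 FPKM in ctrl. The GABA-B sums overlapped only through BKO 2, at 408 FPKM, and ctrl 5, at 392 FPKM. Markers of all neurons were lower in sum as well, at 4035 to 4386 FPKM in BKO and 4338 to 4784 FPKM in ctrl. Of those 7 genes Snap25, of the synaptic release machinery, fell by 0.18 (limma adjusted p = 0.0379, from 0.0109 to 0.332 over the alternatives). Snap25 alone averaged 2027 FPKM in BKO and 2295 FPKM in ctrl, while Map2 and Eno2 each differed by -0.02. Rbfox3, Stmn2, Syt1 and Tubb3 differed by -0.12, -0.11, -0.10 and -0.09. All 7 neuron markers had estimates below 0 (median -0.10), 3 had an unadjusted p under 0.05, and only Snap25 was called. Markers of excitatory neurons summed to 3566 to 3914 FPKM in BKO and 3808 to 4597 FPKM in ctrl. Among them, Camk2n1 alone averaged 2913 FPKM in BKO and 3119 FPKM in ctrl, and it stood at 3675 FPKM in ctrl 2. Of these 6 genes, 5 had estimates below 0 and none was called. Their part in the GABA-A sum was not tested. Markers of inhibitory neurons, whose targets carry these receptors, ran from 1235 to 1409 FPKM in BKO and 1281 to 1391 FPKM in ctrl, and none of the 8 was called. Sst alone averaged 719 FPKM in BKO and 706 FPKM in ctrl.

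**Figure D3:**
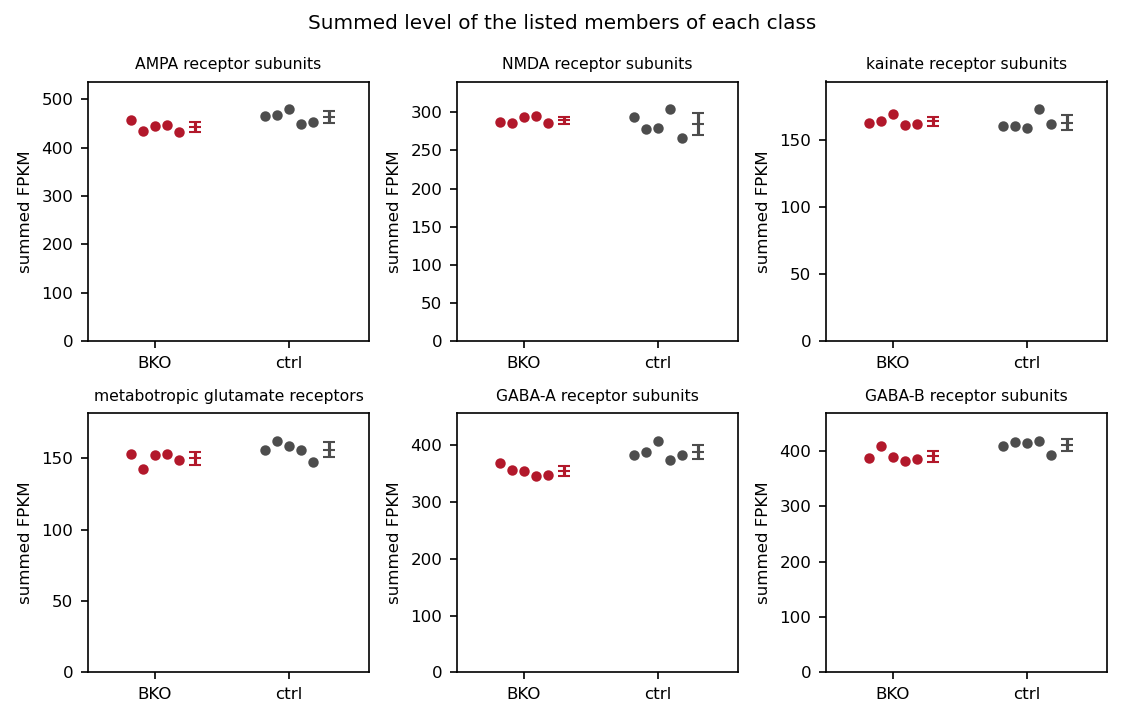
Summed FPKM of the listed genes of each class in every library, with mean and SD beside the points, BKO left of ctrl. The GABA-A sums run from 345 to 368 in BKO and 374 to 407 in ctrl without overlap. The sums of the other classes overlap, those of AMPA and GABA-B receptors through few libraries.

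Gabra3 came closest to a call. It encodes the alpha3 subunit, which takes part in synaptic benzodiazepine-sensitive receptors. Its level was 68.65, 73.3, 74.0, 68.75 and 71.65 FPKM in BKO 1 to 5, against 77.4, 82.5, 85.65, 75.3 and 77.7 FPKM in ctrl 1 to 5. All 5 BKO libraries lay below all 5 ctrl libraries, which held for Gabra3 alone of the 32 members and for 3.09% of all genes tested in that direction. In the other direction it held for none of the members and 3.62% of all genes, and in both together for 6.71%. The difference was -0.16 (SE 0.0456, limma adjusted p = 0.0584, interval -16.3% to -4.17%). It passed with library quality weights (adjusted p = 0.0372) and without ctrl 4 (adjusted p = 0.0422), and the adjusted p ran from 0.0372 to 0.543 over all alternatives.

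Gabrg1, a gamma subunit known for its expression in glia, had the estimate farthest from 0 of the 32. It stood at 11.8, 14.6, 9.49, 8.65 and 12.9 FPKM in BKO 1 to 5, against 15.3, 13.1, 13.9, 14.5 and 18.1 FPKM in ctrl 1 to 5. BKO 2 lay within the ctrl range, and the other BKO libraries lay below it (difference -0.38, SE 0.128, limma adjusted p = 0.108, interval -36.6% to -7.40%). It passed without BKO 2 (adjusted p = 0.0356) and with the choroid plexus markers as a covariate (adjusted p = 0.0191), an alternative chosen after the data were seen, and the adjusted p ran from 0.0191 to 0.412 over all alternatives. Glial markers moved between the groups: all 12 markers of myelinating oligodendrocytes fell, with a summed level of 1009 to 1365 FPKM in BKO and 2986 to 3564 FPKM in ctrl. All 8 genes of the precursor list had estimates below 0 (median -0.10). Their summed level was 153 to 206 FPKM in BKO and 237 to 252 FPKM in ctrl. Of the 8, only Olig1 and Bcas1, which maturing oligodendrocytes also express, were called. Among 9 astrocyte markers, 3 rose. Of 8 microglia markers, 7 had estimates above 0 and the complement genes C1qa and C1qb rose, by 0.39 and 0.28, with a summed level of 478 to 577 FPKM in BKO and 429.5 to 509 FPKM in ctrl. The part of these in Gabrg1 was not tested.

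Gabra2, an alpha subunit of synapses on the axon initial segment, showed a split that did not follow the labels. It stood at 52.5, 54.7, 39.2, 40.9 and 39.1 FPKM in BKO 1 to 5, against 54.65, 50.01, 57.9, 50.8 and 38.8 FPKM in ctrl 1 to 5. Thus 6 libraries stood at 50.01 FPKM or above and 4 at 40.9 or below, 3 of those being BKO and 1 ctrl. No library lay between. The difference was -0.16 (SE 0.115, limma adjusted p = 0.536), and the SD was 7.69 FPKM in BKO and 7.22 FPKM in ctrl. Relative to the mean this was 17.0% in BKO and 14.3% in ctrl, below the 21.0% in BKO and 21.4% in ctrl of the low-level Gabrg3. In the RefSeq annotation of assembly GRCm38.p6, which is not the build of the files, Gabrg1 is next to Gabra2, Gabra4 next to Gabrb1, and Gabrg3 next to Gabra5. Among the 4 libraries with low Gabra2, Gabrg1 was at its lowest in BKO 4 and BKO 3 and at its highest in ctrl 5. Gabrb1 stood at 14.9 and 16.8 FPKM in BKO 1 and 2 and at 12.35 to 13.9 FPKM in the other BKO libraries, and at 15.8 FPKM in ctrl 5, within the 13.3 to 16.0 FPKM of the other ctrl libraries. As deviations from group means over the 10 libraries, Gabra2 correlated at 0.13 with Gabrg1, 0.46 with Gabrb1 and -0.05 with Gabra4. Its highest correlation with a member was 0.86, with Grin2a, which is not next to it. The cause of the split was not tested.

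**Figure D4:**
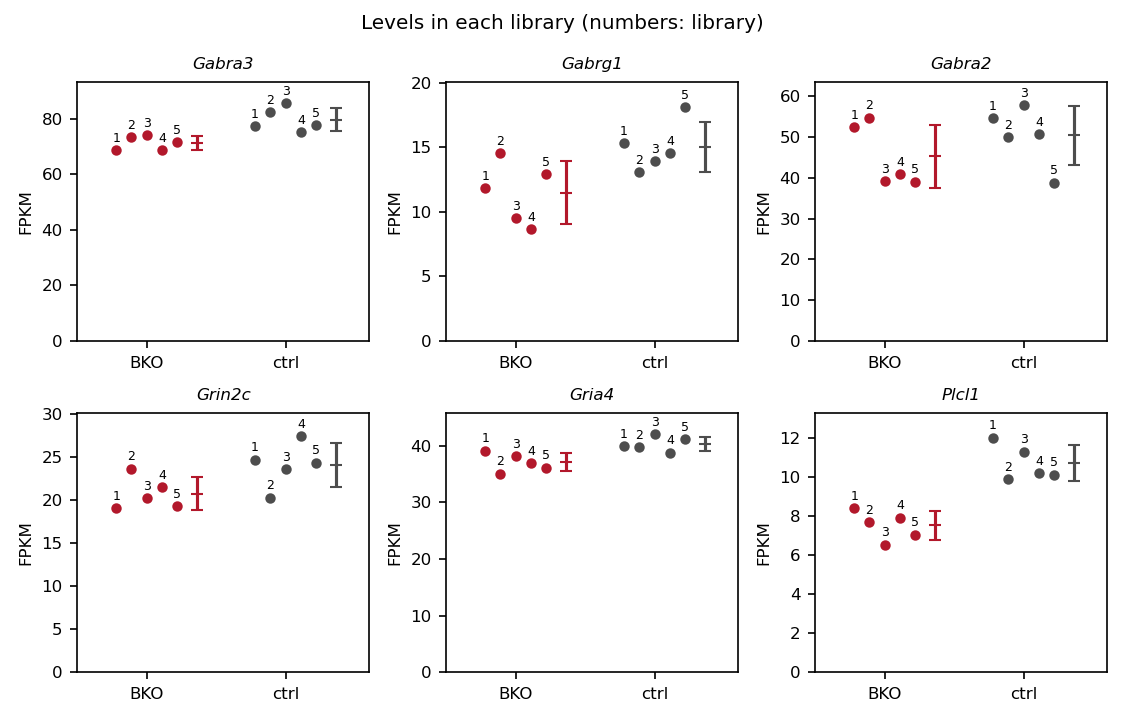
FPKM in each library for 5 receptor genes and for Plcl1, with library numbers, and the mean and SD beside the points, BKO left of ctrl. The groups separate for Gabra3 and Plcl1. Gabra2 shows an upper and a lower set of libraries, the lower made of BKO 3, BKO 4, BKO 5 and ctrl 5.

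Among the other GABA-A genes, Gabra4 and Gabrd make up receptors outside the synapse that hold a standing inhibitory current. Gabra4 stood at 53.1, 48.1, 51.6, 47.1 and 50.2 FPKM in BKO 1 to 5, against 55.5, 50.9, 55.5, 52.65 and 56.5 FPKM in ctrl 1 to 5. The lower ctrl values reached into the BKO range (difference -0.11, SE 0.0478, limma adjusted p = 0.221). Gabrd averaged 60.5 ± 3.31 FPKM in BKO and 63.4 ± 3.90 FPKM in ctrl (SD, n = 5 each; difference -0.07, limma adjusted p = 0.584). Gabra5, also largely extrasynaptic, averaged 50.6 ± 4.08 FPKM in BKO and 54.6 ± 3.66 FPKM in ctrl (difference -0.11, limma adjusted p = 0.411). The beta subunits Gabrb2 and Gabrb1, which help to form the GABA binding site, averaged 46.4 ± 2.64 and 14.25 ± 1.72 FPKM in BKO, against 50.04 ± 5.09 and 14.9 ± 1.09 FPKM in ctrl. Gabrg3 averaged 4.08 ± 0.856 FPKM in BKO and 4.69 ± 1.00 FPKM in ctrl and had the widest interval of all members, -29.4% to 10.5%. Of the summed alpha subunits Gabra2 to Gabra5, Gabra3 held 32.8 ± 1.45% in BKO and 33.4 ± 1.15% in ctrl, and Gabra5 held 23.3 ± 2.19% in BKO and 22.9 ± 0.985% in ctrl. Neither share separated the groups.

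The GABA-B receptor subunits differed by nearly the same amount, and neither was called. Gabbr1, which binds GABA, stood at 289, 305, 287, 279.6 and 291 FPKM in BKO 1 to 5, against 301, 309, 306, 312 and 298 FPKM in ctrl 1 to 5. BKO 2 lay among the ctrl libraries and the others below them (difference -0.07, SE 0.0356, limma adjusted p = 0.323). Gabbr2, which signals to the G protein, stood at 98.1, 102, 100.5, 102 and 94.0 FPKM in BKO 1 to 5, against 108, 108, 108, 106 and 93.9 FPKM in ctrl 1 to 5. Ctrl 5 was the lowest of all and the other 4 ctrl libraries were above every BKO library (difference -0.08, SE 0.0471, limma adjusted p = 0.450).

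The proteins that carry, anchor and tune these receptors gave 1 call among 55 genes, against 5.79% of all genes tested. An unadjusted p under 0.05 was found for 7 of the 55, against 17.5% of all genes tested, with 4 lower and 3 higher in BKO. The called gene was Plcl1, a phospholipase-related protein without catalytic activity that binds GABA-A receptors and the receptor-associated protein Gabarap in their trafficking. Plcl1 stood at 8.41, 7.70, 6.55, 7.94 and 7.07 FPKM in BKO 1 to 5, against 12.0, 9.92, 11.3, 10.2 and 10.1 FPKM in ctrl 1 to 5. All BKO libraries lay below all ctrl libraries, and Plcl1 fell by 0.48 (SE 0.0840, limma adjusted p = 0.00204, interval -36.9% to -19.0%). The call was lost in the 4 libraries with low choroid plexus markers, at -0.45 and an adjusted p of 0.243, the highest over all alternatives, where the lowest was 0.00126. The other 11 genes of the inhibitory scaffold and trafficking list, such as gephyrin (Gphn, difference -0.09) and Nlgn2 (0.02), were not called, nor were the 13 AMPA receptor auxiliary subunits, the 2 of kainate receptors and the 3 of GABA-B receptors. The 20 genes of the excitatory postsynaptic scaffold had 10 estimates on either side of 0, a median of -0.01 and no call, with 2 unadjusted p under 0.05. Dlg4, the scaffold protein PSD-95, differed by -0.02 (limma adjusted p = 0.861). Neither of the 2 delta receptor genes nor any of the 3 neuronal pentraxin genes was called. Over the 55 partners the median was -0.02, between that of the 32 receptor genes at -0.07 and that of all genes tested at 0.00.

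**Figure D5:**
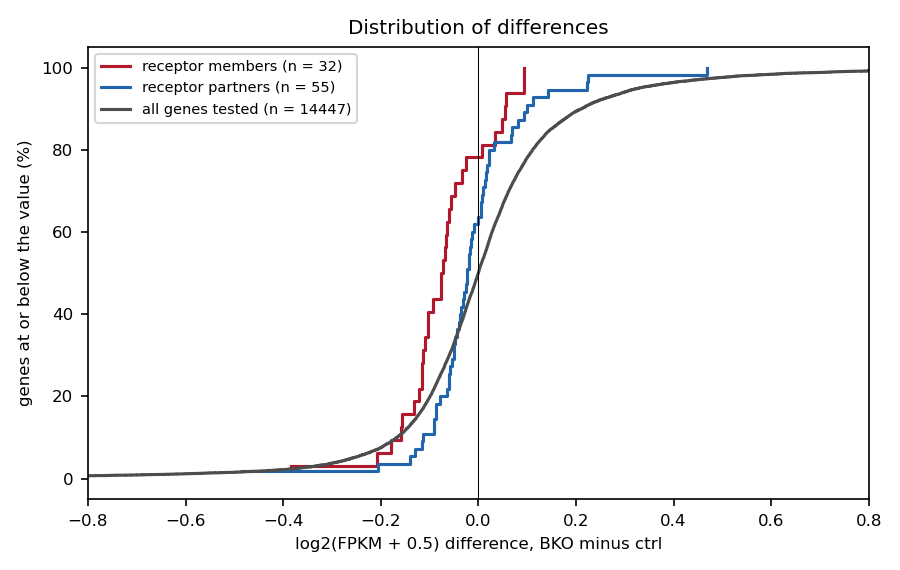
Cumulative share of genes (vertical axis, percent) at or below each log2(FPKM + 0.5) difference between BKO and ctrl, for the 32 receptor genes, their 55 partners and all 14447 genes tested. The receptor curve lies left of 0 for 25 of 32 genes and ends at 0.09, and the partner genes run from -0.48 for Plcl1 to 0.47 for Cacng5, of which Plcl1 was called.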

How the data were processed

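The authors deposited FPKM values, per the file headers, for 22198 genes in 10 libraries. The submitters' processing notes name STAR, HTSeq and mm39, and formula, filters, strand use and versions are not given in the sources used here, so overlapping genes cannot be told apart. The steps between low values gave no consistent relative depth (13 of 45 library pairs within 0.03 log2), so read depth is not known and counting error is not given. There were 0 columns of other samples.

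Genes with at least 0.5 FPKM in 5 of 10 libraries (14447) were fitted as log2(FPKM + 0.5) on genotype with limma 3.58.1 in R 4.3.3 (eBayes with trend, 2-sided) and adjusted by Benjamini-Hochberg over all of them; intervals are limma's at 95%. Python 3.11.15, numpy 2.4.6, pandas 2.3.3, scipy 1.17.1 and matplotlib 3.10.9 made summaries and figures. The fit was tested on simulated data. Every one of the 32 members is named, with Chchd3 and up to 4 called genes of each partner list; other partners and markers named were chosen after their values were seen. Members and lists were chosen with earlier results of these data known. Classes, sums and shares have no test. Alternatives were pseudocounts, filters, scalings, quality weights, the replicate number as a block, each library left out and, added after seeing the data, the choroid plexus settings.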

Additional observations from a re-analysis of the deposited data

Results flagged for a closer look

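In 80 groups of 5 libraries (the 32 members, Chchd3, Plcl1 and the 6 class sums, in BKO and in ctrl), 5 had a library set apart from the other 4 by Dixon's criterion (critical value 0.71), and chance gives about 1 in 20. Gabra5 was low in BKO 2, at 43.4 FPKM where the other BKO libraries stood at 51.7 to 53.2. The GABA-B sum was high in BKO 2, at 408 FPKM against 382 to 388 in the other BKO libraries. Grm7 and Gabbr2 were low in ctrl 5, at 24.96 FPKM against 27.9 to 28.7 and at 93.9 FPKM against 106 to 108 in the other ctrl libraries. The kainate receptor sum was high in ctrl 4, at 173 FPKM against 159 to 162 in the other ctrl libraries.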

How the results depend on the processing

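Over 22 alternatives, 688 of 704 member differences kept their sign and their side of the threshold, and 25 of 32 members kept their sign in all of them. Members called lower numbered 1 with library quality weights and 1 with the choroid plexus covariate, and 0 to 1 with 1 library left out; no alternative called a member higher. Partners called higher numbered 1 after rescaling to an equal sum and 0 to 1 with 1 library left out; partners called lower numbered 0 in the 4 libraries with low choroid plexus markers, and from 1 to 2 when single libraries were dropped. All genes called higher and lower fell to 148 and 103 in those 4 libraries and 221 and 172 in the 6 with high markers, where fewer samples were fitted. Chchd3 passed at 0.19 after rescaling to an equal sum and after quantile normalization, and it also passed without BKO 4 (adjusted p = 0.0288) and without ctrl 5 (adjusted p = 0.0403), and its difference ran from 0.14 to 0.20 with 1 library left out (limma adjusted p from 0.0226 to 0.597 over all alternatives). Signs changed in the 4 libraries with low markers for Grin2d (-0.0767), Grik2 (0.0478), Grik3 (0.0278), Grik5 (-0.00693) and Gabrb2 (0.0164), and in the 6 with high markers for Grm4 (-0.0138); the cause was not tested. With 1 library left out, Gria1 ran from -0.00301 to 0.0189, Grin2d from -0.0170 to 0.0679 and Grik2 from -0.0568 to 0.0248. Same-numbered libraries correlated at -0.17 to 0.09 as deviations from group means, which cannot tell whether the numbers pair them. For BKO 1 and BKO 5, the ctrl library with the highest correlation had the same number. With the replicate block, 0 members and 702 genes were called. The unknown read depth limits what can be said of members under 10 FPKM.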
